A study of Mus musculus with 8 samples.

Results

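The genes described here are 10 genes of the machinery that reads unmethylated CpG DNA and writes or erases methylation on histone H3: the CXXC zinc finger genes Cxxc1, Kdm2a, Kmt2a and Kmt2b, the methyltransferase gene Kmt2d, the core complex genes Ash2l, Wdr5 and Rbbp5, the H3K79 methyltransferase gene Dot1l and the H3K4 demethylase gene Kdm5b. Members were all probe sets whose platform annotation gave 1 of these symbols and no other. By that rule 6 of the 10 genes were measured, by 11 probe sets, among 12393 genes with a probe set of their own. Ash2l, Wdr5, Kdm5b, Cxxc1 and Kmt2a had 2 probe sets each and Kmt2d had 1. No probe set was annotated to Kdm2a, Kmt2b, Rbbp5 or Dot1l, so these 4 genes were not analysed here, and H3K79 methylation is represented only through Dot1l partners.

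A CXXC zinc finger binds CpG dinucleotides that carry no methyl group, which brings the proteins that have it to CpG islands. Cxxc1 takes the Setd1 methyltransferases to such sites, and Kmt2a and Kmt2b carry a CXXC finger of their own. These enzymes share a core of Wdr5, Rbbp5, Ash2l and Dpy30 and methylate lysine 4 of histone H3 (H3K4), while Kmt2d, with the same core, acts mainly at enhancers. Kdm5b removes methyl groups from H3K4, Kdm2a removes them from H3K36, and Dot1l methylates H3K79 in transcribed genes. In embryonic stem cells Wdr5 and Kdm5b are both known as regulators of self-renewal.

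The study knocked down Fbxl19, the gene of a CXXC protein that also has an F-box, in J1 cells, a mouse embryonic stem cell line, and asked how expression across the genome changes. Affymetrix 430A 2.0 arrays measured 4 groups of 2 arrays: shControl (a control hairpin), Fbxl19 Knockdown shRNA1, Fbxl19 Knockdown shRNA2 and a group differentiated to day 4. The growth conditions in the labels, which are the same for every sample, are gelatin-coated dishes with serum and leukemia inhibitory factor (LIF). Neither the way cells were differentiated nor whether the day 4 cells carried a hairpin is given, and the labels leave unsaid if replicate arrays hold separate cultures. A p-value here therefore measures no more than the spread of these arrays, possibly a technical one. Titles and source names give Fbxl19 for all 4 knockdown arrays and were followed, whereas their description field counts on to Fbxl20, Fbxl21 and Fbxl22. Fbxl19 had no probe set of its own, so the knockdown could not be checked on these arrays.

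The region just upstream of a start site is one place where CXXC proteins can meet CpG DNA. Such stretches are printed for 3 genes to show how differently the measured genes are provided with it. RefSeq windows (GRCm38.p6) of 300 bases, from 250 bases before to 50 bases after a start, were at hand for 6 of the 10 genes. The dinucleotide counted was C followed by G, which reads the same on both strands, and the median of 32851 windows held 7. The window of Dot1l held 49 CpG, a count reached by 1.02% of windows, Kmt2a held 36 (6.23%), Kmt2d 27 (15.5%), Wdr5 22 (23.1%), Kdm5b 17 (31.4%) and Rbbp5 16 (33%). All 6 were thus above the median, with Kmt2a far richer than Wdr5 or Kdm5b. The 2 windows of Fbxl19 held 14 and 16. The 250 bases before the start are given for 3 measured genes, Wdr5, Kdm5b and Kmt2a. Whether CpG counts go with the day 4 calls was not tested. They lie at chr2:27514897-27515146 on the plus strand for Wdr5, at chr1:134559928-134560177 on the plus strand for Kdm5b and at chr9:44881290-44881539 on the minus strand for Kmt2a. Capitals mark each CG, of which the stretches hold 12, 13 and 29.
Wdr5: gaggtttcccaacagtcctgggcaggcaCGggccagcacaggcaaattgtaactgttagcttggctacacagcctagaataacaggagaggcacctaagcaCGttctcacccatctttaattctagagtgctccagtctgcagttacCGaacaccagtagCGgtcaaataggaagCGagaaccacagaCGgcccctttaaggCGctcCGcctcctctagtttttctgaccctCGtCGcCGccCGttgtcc
Kdm5b: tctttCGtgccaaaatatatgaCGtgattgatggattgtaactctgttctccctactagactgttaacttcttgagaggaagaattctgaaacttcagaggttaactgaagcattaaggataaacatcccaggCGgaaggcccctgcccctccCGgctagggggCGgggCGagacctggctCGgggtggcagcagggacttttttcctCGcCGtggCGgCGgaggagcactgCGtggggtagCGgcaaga
Kmt2a: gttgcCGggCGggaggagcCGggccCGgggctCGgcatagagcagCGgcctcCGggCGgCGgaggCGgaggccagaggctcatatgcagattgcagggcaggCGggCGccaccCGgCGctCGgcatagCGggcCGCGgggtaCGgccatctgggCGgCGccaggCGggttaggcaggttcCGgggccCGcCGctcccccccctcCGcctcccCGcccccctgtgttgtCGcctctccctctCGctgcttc
Counts of CpG describe the sequence only; binding and methylation at these sites were not measured in the data used here.

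Of the 6 measured genes, 3 were lower on day 4 of differentiation than in shControl cells: the core subunits Ash2l and Wdr5 and the demethylase Kdm5b, each by 1.69- to 1.81-fold. None was higher. Cxxc1, Kmt2a and Kmt2d were not called. No member was called with either Fbxl19 hairpin. Calls were made with limma, at a p under 0.05 after Benjamini-Hochberg adjustment over 12393 genes, each represented by its brightest probe set. On day 4, 16.4% of all genes were called (951 higher and 1082 lower), and the median change was -0.35 for the 6 genes and -0.0006 for all genes. No member was near that median: the 3 called genes changed by -0.86 to -0.75 and the 3 others by 0.04 to 0.30. All values are log2 expression by RMA (the deposited scale), and all changes are differences of log2 means of 2 arrays a group with the moderated standard error (SE).

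**Figure D1:**
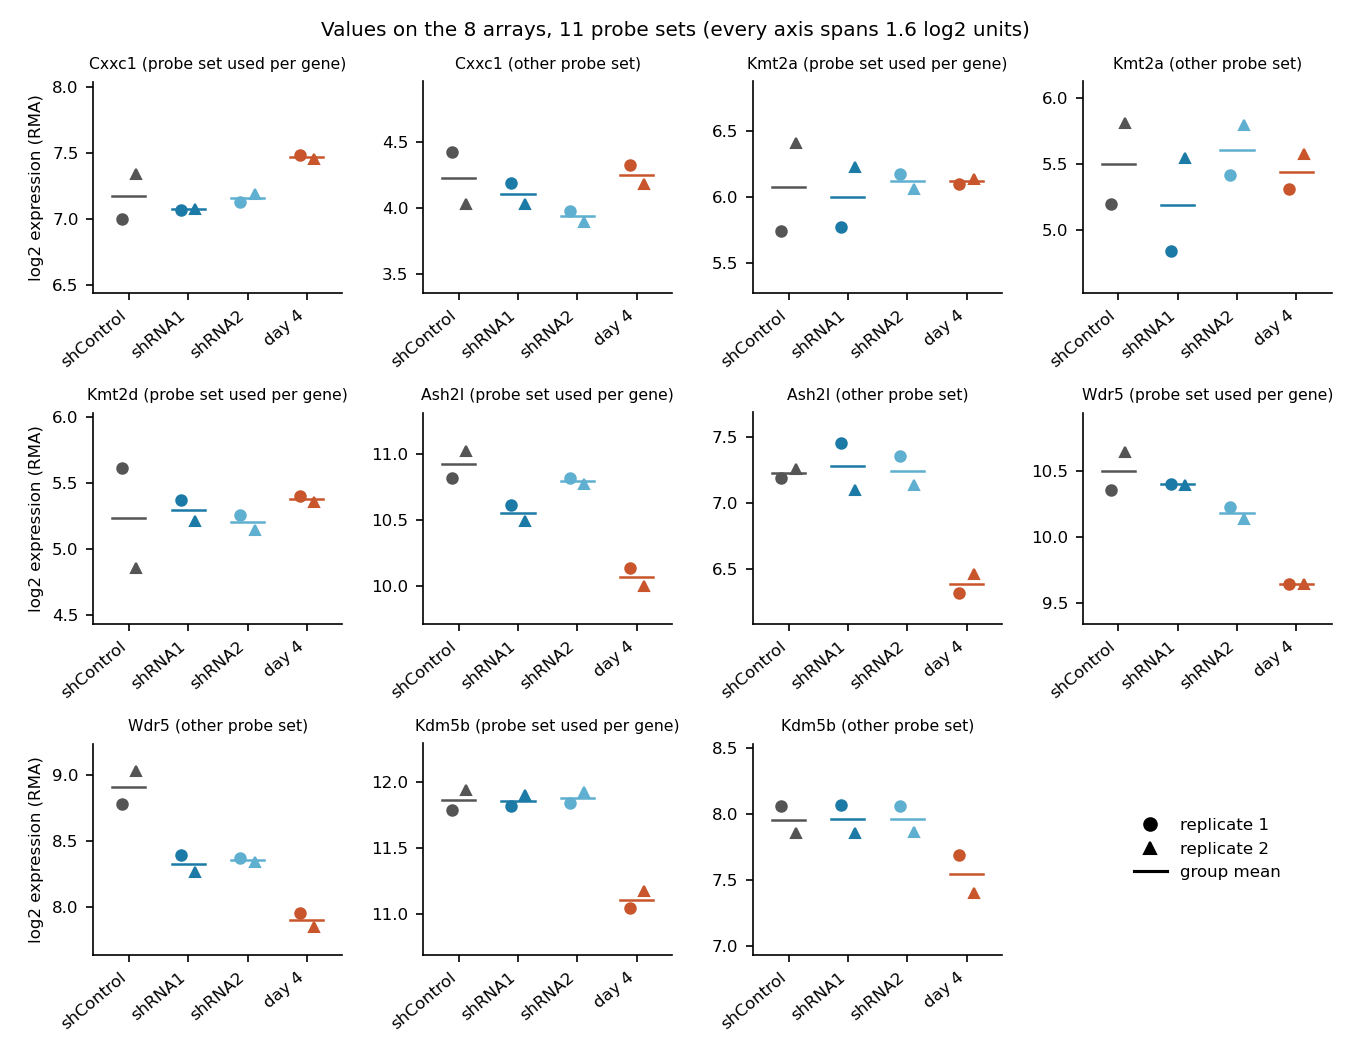
Log2 expression (RMA, vertical axes) of the 11 probe sets on the 8 arrays, by group; circles are replicate 1, triangles replicate 2 and lines the means of 2 arrays. The day 4 arrays lie below all 6 other arrays for both probe sets of Ash2l, Wdr5 and Kdm5b, and the shControl arrays lie far apart for Kmt2a and Kmt2d. Against shControl alone, the day 4 arrays did not overlap, in either direction, for 50.4% of all genes. The share against all 6 other arrays was not counted.

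Among the CXXC genes, Cxxc1 (the CpG-binding subunit of the Setd1 complexes) read 7.0 and 7.34 on the shControl arrays, 7.07 and 7.08 with shRNA1, 7.13 and 7.19 with shRNA2, and 7.48 and 7.46 on day 4. Both day 4 arrays were above the other 6, yet the difference from shControl of 0.30 ± 0.15 (SE, n = 2 a group; 95% interval -0.03 to 0.63) was not called (adjusted p = 0.218). Against shControl the difference was -0.10 ± 0.15 for shRNA1 and -0.01 ± 0.15 for shRNA2, inside the gap of 0.34 between the shControl arrays. Without shControl replicate 2 both turned in sign (0.07 and 0.16) and the day 4 difference was 0.47 (adjusted p = 0.0763, over all alternatives 0.0763 to 0.516), while without replicate 1 it was 0.13. The other Cxxc1 probe set was dim, at 3.89 to 4.42, near the lower quartile of an array (3.79 to 3.90), and its day 4 difference was 0.03.

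Kmt2a, a methyltransferase with its own CXXC finger and the gene rearranged in mixed-lineage leukemia, read 5.74 and 6.41 in shControl, 5.77 and 6.23 with shRNA1, 6.17 and 6.06 with shRNA2, and 6.10 and 6.13 on day 4. The 2 shControl values enclose all 6 others. Accordingly the intervals were wide: the difference was -0.07 (95% interval -0.59 to 0.44) with shRNA1, 0.04 (-0.47 to 0.56) with shRNA2 and 0.04 (-0.47 to 0.56) on day 4. Without shControl replicate 2 these were 0.26, 0.38 and 0.38, and without replicate 1 they were -0.41, -0.29 and -0.29. The other Kmt2a probe set gave -0.31 ± 0.28 with shRNA1, 0.11 ± 0.28 with shRNA2 and -0.06 on day 4, again with overlapping arrays. The difference between the hairpins in that probe set was 0.42 ± 0.28 (adjusted p = 1).

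Kmt2d, the methyltransferase of enhancers, which has no CXXC finger, read 5.61 and 4.86 in shControl, 5.38 and 5.22 with shRNA1, 5.26 and 5.15 with shRNA2, and 5.40 and 5.36 on day 4. The gap of 0.75 between the shControl arrays was the widest of any group and probe set here, and all 6 other arrays fell inside it. The difference was 0.06 (95% interval -0.44 to 0.56) with shRNA1, -0.03 (-0.53 to 0.47) with shRNA2 and 0.15 (-0.36 to 0.65) on day 4. Their sign depends on which shControl array is used: without replicate 2 they were -0.32, -0.41 and -0.23, and without replicate 1 they were 0.44, 0.34 and 0.52.

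Ash2l, the core subunit that works with Rbbp5 and Dpy30 to activate the catalytic domain, gave 10.81 and 11.02 in shControl, 10.61 and 10.49 with shRNA1, 10.81 and 10.77 with shRNA2, and 10.13 and 10 on day 4. The day 4 arrays were the lowest of the 8 and did not overlap any group. Ash2l fell by 0.85 on the log2 scale on day 4 (SE 0.14, n = 2 a group, 1.8-fold lower, adjusted p = 0.00316; 95% interval -1.16 to -0.54). Its other probe set, read on the same arrays, gave 7.19 and 7.26 in shControl against 6.31 and 6.46 on day 4, a change of -0.84 ± 0.16 that was called when every probe set was tested (adjusted p = 0.00882). That call was lost without shControl replicate 2 (-0.80, adjusted p = 0.0626) and with array weights, the adjusted p over all alternatives running from 0.00259 to 0.0672.

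With the hairpins the 2 Ash2l probe sets gave unlike values, and neither was called. The brighter one gave -0.37 ± 0.14 with shRNA1 (unadjusted p = 0.0255, adjusted p = 0.439) and -0.13 ± 0.14 with shRNA2 (adjusted p = 0.989). The other gave 0.05 ± 0.16 and 0.02 ± 0.16, with overlapping arrays. The difference between the hairpins was 0.24 ± 0.14 for the brighter probe set (adjusted p = 1).

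Wdr5, the core subunit that ties the catalytic subunit to the rest of the complex, gave 10.36 and 10.65 in shControl, 10.41 and 10.39 with shRNA1, 10.23 and 10.14 with shRNA2, and 9.65 and 9.64 on day 4. Its day 4 arrays agreed to 0.0016 and lay below all 6 others. Wdr5 fell by 0.86 on the log2 scale on day 4 (SE 0.14, n = 2 a group, 1.81-fold lower, adjusted p = 0.00331; 95% interval -1.18 to -0.54). The other probe set gave 8.79 and 9.03 in shControl against 7.95 and 7.85 on day 4, a fall of 2.01-fold (-1.01 ± 0.14, adjusted p = 0.00164 over all probe sets).

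That second Wdr5 probe set also held the lowest p among the members in the hairpin comparisons. It gave 8.39 and 8.27 with shRNA1 and 8.37 and 8.34 with shRNA2, all 4 below both shControl arrays and above both day 4 arrays. The difference was -0.58 ± 0.14 with shRNA1 (unadjusted p = 0.00264, adjusted p = 0.207) and -0.55 ± 0.14 with shRNA2 (unadjusted p = 0.00358, adjusted p = 0.511), so neither was called. For both hairpins together it was -0.56 ± 0.12 (adjusted p = 0.21), the p ranking 120 of 20380 probe sets, and without shControl replicate 2 it was -0.44 (adjusted p = 0.601, over all alternatives 0.117 to 0.717). The brighter Wdr5 probe set gave smaller differences, -0.10 ± 0.14 with shRNA1 and -0.32 ± 0.14 with shRNA2 (unadjusted p = 0.0484, adjusted p = 0.969), and without shControl replicate 2 these were 0.04 and -0.18. These hairpin comparisons share the shControl arrays.

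Kdm5b, the H3K4 demethylase, gave 11.79 and 11.94 in shControl, 11.82 and 11.90 with shRNA1, 11.84 and 11.93 with shRNA2, and 11.05 and 11.18 on day 4. The 6 undifferentiated arrays spanned less than the distance from the lowest of them to day 4. Kdm5b fell by 0.75 on the log2 scale on day 4 (SE 0.13, n = 2 a group, 1.69-fold lower, adjusted p = 0.00507; 95% interval -1.05 to -0.45). Its other probe set gave 8.06 and 7.85 in shControl against 7.69 and 7.40 on day 4, a difference of -0.41 ± 0.16 that was not called (unadjusted p = 0.0317, adjusted p = 0.134). With the hairpins Kdm5b had the narrowest intervals of the 6 genes: -0.0036 (95% interval -0.31 to 0.30) with shRNA1 and 0.02 (-0.28 to 0.32) with shRNA2. A difference of more than about 0.32 in either direction thus lay outside these intervals.

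**Figure D2:**
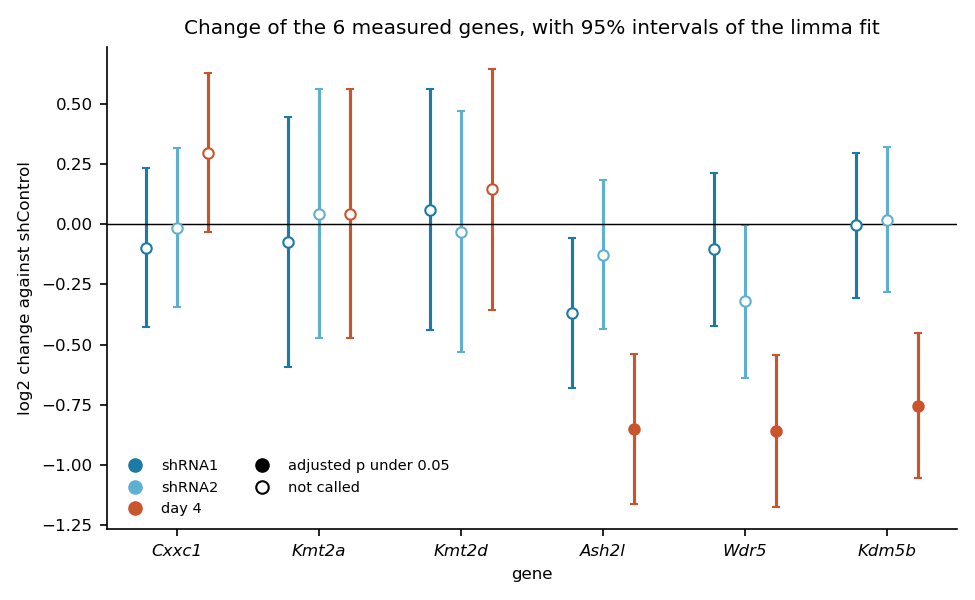
Log2 change against shControl (vertical axis) of the 6 measured genes with shRNA1, shRNA2 and on day 4; bars are 95% intervals of the limma fit with 2 arrays a group, and filled points have an adjusted p under 0.05. The 3 filled points are the day 4 changes of Ash2l (-0.85), Wdr5 (-0.86) and Kdm5b (-0.75), and all hairpin points are open.

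Counted over genes, limma called 0 of the 6 in every hairpin comparison, beside 0.0726% of all genes for both hairpins against shControl, 0.242% for shRNA1, 0% for shRNA2 and 0.105% for shRNA2 against shRNA1. At an unadjusted p under 0.05 the members numbered 0, 1, 1 and 0 of 6 in these comparisons. All genes numbered 1043, 1217, 632 and 638, which is 8.42%, 9.82%, 5.1% and 5.15%. The median change of the 6 genes was -0.04 for both hairpins, -0.09 for shRNA1, -0.02 for shRNA2 and 0.05 between hairpins. A count of 0 among 6 genes is near backgrounds this low and is no result about the members; the interval of each gene gives what the arrays could resolve. When each of 20380 probe sets was tested, 0 of the 11 were called with hairpins, beside 0.0294%, 0.182%, 0% and 0.0736% of all probe sets in the same order, and 5 of 11 were called on day 4, all lower, beside 14.8%. By gene, the compared arrays did not overlap for 1, 1, 2 and 3 of the 6 in that order, beside 20.1%, 43.4%, 33.1% and 43.6% of all genes. On day 4 against shControl it was 4 of 6, beside 50.4%. Arrays that do not overlap are thus common and by themselves no result about the members. For day 4 against all 6 other arrays the share of all genes was not counted, so such positions are description only.

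Day 4 was also compared with the 4 hairpin arrays, a reference that leaves out the shControl arrays. In that comparison Ash2l (-0.60 ± 0.12, adjusted p = 0.00666), Wdr5 (-0.65 ± 0.12, adjusted p = 0.00523) and Kdm5b (-0.76 ± 0.12, adjusted p = 0.00165) were called lower, 3 of 6 members beside 21.4% of all genes. The fall of Kdm5b was as large as against shControl. Those of Ash2l and Wdr5 were smaller by 0.25 and 0.21, which is the distance of their hairpin means from shControl. The second Wdr5 probe set moved more, from -1.01 against shControl to -0.44 against the hairpin arrays (adjusted p = 0.0336, the highest of its alternatives, which began at 0.00133). Cxxc1 stood at 0.35 ± 0.13 above the hairpin arrays and was not called (adjusted p = 0.0826).

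The wider pathway was described with 7 lists of 61 further genes, of which 47 were measured. On day 4 limma called 5 of the 47 (10.6%), all lower, beside 16.4% of all genes, with a median change of -0.15. At an unadjusted p under 0.05 there were 9 of 47, beside 29.2% of all genes, so neither count is above the background. With the hairpins 0 of the 47 were called. The counts at an unadjusted p under 0.05 were 4 for both hairpins, 5 for shRNA1, 2 for shRNA2 and 3 between hairpins, beside 8.42%, 9.82%, 5.1% and 5.15% of all genes, so they are near the background.

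Among other CXXC genes, 1 of 5 measured was lower on day 4, a share near the 16.4% of all genes called and so no result about these genes. Tet1, which oxidises 5-methylcytosine and is abundant in embryonic stem cells, gave 7.92 and 8.42 in shControl, 7.98 and 8.31 with shRNA1, 8.45 and 8.61 with shRNA2, and 6.82 and 6.33 on day 4. The day 4 arrays lay below all others, and Tet1 fell by 1.59 on the log2 scale (SE 0.22, 3.02-fold lower, adjusted p = 0.00144). Both shRNA2 arrays lay above the shControl and shRNA1 arrays, but the difference from shControl of 0.36 was not called (adjusted p = 0.989). Its other, dim probe set, at 3.26 to 3.89, gave -0.23 and was not called. Kdm2b, the paralog of Kdm2a, gave 8.88 and 8.83 in shControl and 8.88 and 9.34 on day 4, and was not called (adjusted p = 0.381 over all probe sets).

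Among 13 measured other subunits of H3K4 methyltransferase complexes, 2 were lower on day 4 and none was higher, a share near the 16.4% of all genes called and so no result about these subunits. Dpy30, the remaining core subunit, gave 12.40 and 12.47 in shControl, 12.53 and 12.40 with shRNA1, 12.53 and 12.37 with shRNA2, and 11.60 and 11.97 on day 4. It fell by 0.64 on the log2 scale (SE 0.16, 1.56-fold lower, adjusted p = 0.0241). Ncoa6, a coactivator found in the Kmt2c and Kmt2d complexes, gave 6.95 and 7.33 in shControl and 6.09 and 6.60 on day 4, with 7.10 to 7.49 on the hairpin arrays. It fell by 0.80 (SE 0.22, 1.74-fold lower, adjusted p = 0.0394). These 2 calls were the least steady: Dpy30 lost its call without either shControl array or day 4 replicate 1 (adjusted p = 0.064 to 0.118), and Ncoa6 without these arrays or either shRNA1 array (0.0561 to 0.233).

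Among 4 other H3K4 methyltransferases none was called on day 4. The lowest p belonged to Prdm9, the meiotic recombination enzyme (-0.53, adjusted p = 0.0679), and Smyd2 (0.33, adjusted p = 0.266). On day 4 Prdm9 was dim, near the lower quartile of an array. Among 6 other H3K4 demethylases and their partners, Rcor2, a corepressor of the Kdm1a complex, gave 9.10 and 9.21 in shControl, 9.0 and 9.02 with shRNA1, 8.91 and 8.82 with shRNA2, and 7.58 and 8.34 on day 4. Rcor2 fell by 1.19 on the log2 scale (SE 0.22, 2.29-fold lower, adjusted p = 0.00653), and without shControl replicate 2 the change was -1.14 with an adjusted p of 0.0687, the highest of alternatives that began at 0.000147. Kdm1a itself, Kdm5a, Kdm5c, Kdm5d and Rcor1 were not called. A count of 1 of 6 is near the 16.4% of all genes called and is no result about the list.

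Of 6 measured Dot1l partners 1 was called on day 4, again near the 16.4% of all genes called and no result about the list. Aff1, a scaffold of the super elongation complex and a fusion partner of Kmt2a in leukemia, gave 8.87 and 9.01 in shControl, 9.15 and 9.17 with shRNA1, 8.81 and 8.81 with shRNA2, and 7.10 and 6.84 on day 4. It fell by 1.97 on the log2 scale (SE 0.14, 3.91-fold lower, adjusted p = 3.96e-05), the largest change among the 47 genes. A second Aff1 probe set fell by 1.52 (adjusted p = 0.000517), and the third, near the lower quartile at 3.52 to 4.04, gave -0.05. Mllt1, Mllt3, Mllt6, Mllt10 and Aff4 were not called, with changes of -0.46 to 0.41.

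Neither of the 2 measured H3K36 demethylases was called on day 4 (Kdm4c 0.20, adjusted p = 0.591; Kdm4b -0.15, adjusted p = 0.757). Of 11 measured readers of H3K4 methylation none was called, with Ing3 (-0.39, adjusted p = 0.09) and Ing1 (-0.51, adjusted p = 0.108) lowest in p. Both belong to the inhibitor of growth family, whose PHD fingers bind methylated H3K4.

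**Figure D3:**
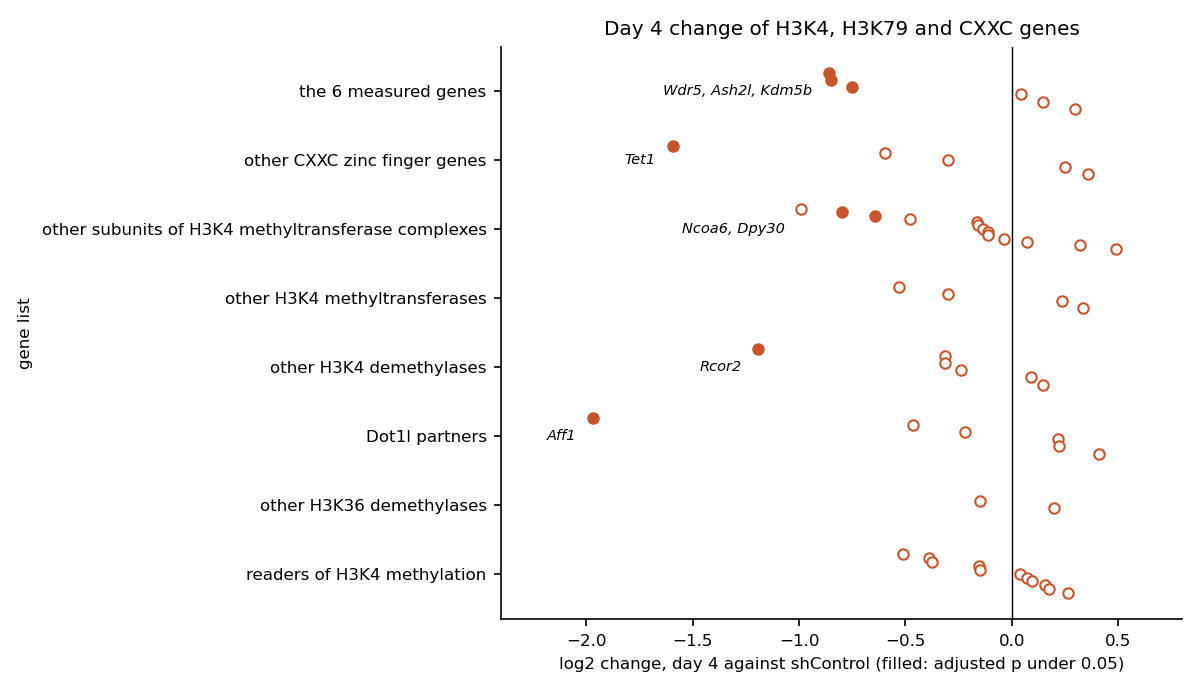
Log2 change on day 4 against shControl (horizontal axis) of the 6 measured genes and of 47 further genes in 7 lists (vertical axis, 1 point a gene, shifted within a list to be visible); filled points have an adjusted p under 0.05 and are named from left to right. All 8 filled points lie below 0, from -1.97 for Aff1 to -0.64 for Dpy30.

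For the 3 members called on day 4, the genes most like them were found by the root mean square distance over the 8 arrays, each array's value taken relative to the gene's shControl mean. Nearest to Wdr5 were Zfp740 (distance 0.0656), Slc5a11 (0.0714) and Slc6a6 (0.0940), where the median gene was at 0.5000. Nearest to Ash2l were Hinfp (0.0732), Rftn2 (0.0788) and Cdk12 (0.0808), with a median of 0.5084. Nearest to Kdm5b were Cic (0.0501), Zfp532 (0.0526) and Asf1b (0.0535), with a median of 0.4277. Since both day 4 arrays enter the distance, the day 4 changes of these 9 genes are alike by their choice and are not a result.

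The arrays themselves set limits on these values. Pairs of a group correlated at r = 0.9877 to 0.9969 across genes, each by its brightest probe set, with day 4 lowest. The outer quartiles of replicate 2 of shControl, 3.79 and 8.18, were beyond those of all 7 others, and for 8 of the 11 member probe sets the gap between arrays was widest in shControl (median gap 0.2850, against 0.0911 to 0.1586 in the other groups). Without that array the day 4 changes of Ash2l, Wdr5 and Kdm5b were -0.75, -0.72 and -0.67 (adjusted p = 0.0245, 0.0216 and 0.0342; the highest over all alternatives were 0.0292, 0.0301 and 0.0445), while 1102 rather than 2033 genes were called. The excess of the actin control's 3′ probe set over its 5′ one, a measure of RNA and labelling quality, was 0.54 and 0.60 in shControl, 0.70 to 0.76 on the hairpin arrays and 0.65 and 0.73 on day 4, so it set both shControl arrays apart from all 6 others, as the second Wdr5 probe set did, and its part in the results was not tested.

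The labelled cell type was checked with markers. All 11 embryonic stem cell markers were measured and 0 were called with hairpins, with 0 to 1 at an unadjusted p under 0.05. On day 4, 9 of 11 were lower (Klf4 -4.55, Esrrb -3.71, Tfcp2l1 -3.43, Zfp42 -2.84), while Pou5f1 (-0.25, adjusted p = 0.281) and Sox2 (-0.34, adjusted p = 0.419) were not called. The mean of the list was 10.66 and 10.71 in shControl, 10.58 to 10.84 with hairpins, and 9.0 and 7.71 on day 4, so the day 4 arrays differed from each other far more in these markers than in Ash2l, Wdr5 or Kdm5b.

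Of 7 epiblast-like markers 5 were higher on day 4 (Sall2 4.14, Pou3f1 3.53, Otx2 2.32, Fgf5 2.20), with list means of 7.96 and 8.70 against 6.21 and 6.26 in shControl. Otx2 was also called with shRNA1 (1.38, adjusted p = 0.0218). Of 9 trophoblast markers 4 were higher and 1 lower on day 4 (Krt8 2.83, Eomes 2.70, Tfap2c -1.75, Gata3 1.95 with an adjusted p of 0.0513), with means of 6.10 and 5.84 against 4.97 and 4.96. Of 8 primitive endoderm markers 1 was lower (Lama1 -2.74), of 5 measured mesoderm markers 1 was lower (Kdr -0.89), and of 7 early neural markers 1 was higher and 2 lower. None of 9 fibroblast markers was called, and their mean was 4.0 to 4.15 on every array. Of all genes 16.4% were called on day 4. The day 4 changes of Ash2l, Wdr5 and Kdm5b came with these marker changes, whose part in them was not tested. In such bulk RNA, fewer cells of a type and less RNA per cell cannot be told apart.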

How the data were processed

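Gene expression was measured on 8 Affymetrix arrays, grouped by their titles. The deposited table of the authors gives 1 log2 value per probe set and array, from RMA (background correction, quantile normalization, summary of probes) per the submitters' processing notes. Its version, and whether arrays were normalized together, is not given in the sources used here. The labels name Cy3. The table held 22690 probe sets: 64 controls, left out of tests, and 20380 with 1 symbol, 691 with several and 1619 with none or for controls. By gene identifier 20351 matched RefSeq's GRCm38.p6 gene table.

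For a gene with several probe sets, the brightest on average was used (12393 genes). A mean per group was fitted to all arrays with limma 3.58.1 (lmFit, eBayes) in R 4.3.3, with 4 residual degrees of freedom, after the method was tested on simulated data. No filter on dim genes was used, and dim probe sets have compressed changes. Array number, not depth, limits precision. The named genes are all members, every pathway gene called with a hairpin and up to 4 a list with the largest called day 4 change (otherwise the 2 with the smallest p), up to 4 a marker list, and the 3 genes nearest to each called member. The members and lists were chosen with earlier results of these data known. Alternatives were other uses of probe sets, a filter on the dimmest 30%, trend and robust moderation, array weights, the compared groups alone, repeated normalization or centring, the replicate number as a block, day 4 against the hairpin arrays, and leaving out each array.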

Additional observations from a re-analysis of the deposited data

How the results depend on the processing

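Ash2l, Wdr5 and Kdm5b were called lower on day 4 in 18 of 18 alternatives (-0.96 to -0.60, -1.0 to -0.65 and -0.83 to -0.58), and no member was called in any hairpin comparison. These day 4 values are from the brightest probe set of each gene. The other probe set was called in 16 of 16 alternatives for Wdr5, 14 of 16 for Ash2l and 0 of 16 for Kdm5b. Counts over all genes moved more. For both hairpins 9 genes became 54 with only the compared groups fitted, 5 with array weights, 22 with the replicate block and 0 to 54 with an array left out: 0 without either shControl array, 54 without either day 4 array. For shRNA1, 30 became 48 with trend and robust moderation, 113 with the compared groups, 50 after repeated quantile normalization, 49 with the block and 2 to 113 with an array left out: 2 when a shControl array was left out, 3 for a shRNA1 array and 113 for a day 4 array. For shRNA2, 0 became 2, 40 and 2 under the first 3 of these, and 0 to 12 with an array left out (12 without either day 4 array). Between hairpins 13 became 176 with array weights, 8 with the block and 2 to 37 with an array left out (37 without either day 4 array). On day 4, 2033 became 1145 with the compared groups, 1191 with array weights and 1102 to 2628 with an array left out. The 5 called pathway genes became 3 with the compared groups, 3 with array weights, 8 with the block, 9 against the hairpin arrays and 2 to 9 with an array left out: 3 and 2 without shControl replicate 1 and 2, 9 without day 4 replicate 2. Tet1 and Aff1 were called in 18 of 18 alternatives, Rcor2 in 17, Dpy30 in 13 and Ncoa6 in 11. The cause of these shifts was not tested. Replicate numbers were not taken as pairs in the main fit. The replicate differences correlated at 0.5043 between the hairpins and at 0.2614 and 0.2262 between shControl and shRNA1 or shRNA2. With day 4 they correlated at -0.0776 to 0.0698. Whether arrays of the same replicate number share an effect was not tested. The replicate block changed no call of a member. Where an array is left out, the lone array is assumed to vary like the other groups.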

Other observations

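The 2 probe sets of Kdm5b moved in opposite ways between the arrays of a group. In the brighter one replicate 2 was above replicate 1 in all 4 groups, by 0.16, 0.08, 0.08 and 0.14 for shControl, shRNA1, shRNA2 and day 4. In the other it was below in all 4, by 0.21, 0.21, 0.19 and 0.29. Replicate 2 was also below replicate 1 in all 4 groups for Kmt2d and the dim Cxxc1 probe set, and above it for the dimmer Kmt2a probe set. Of 20380 probe sets, 3808 (18.7%) ran the same way in all 4 groups. The cause was not tested.

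Some pathway genes that limma did not call with the hairpins had low unadjusted p, and are named after their values were seen. Prdm9 gave 4.33 and 4.56 in shControl, 3.75 and 4.01 with shRNA1, and 3.70 and 4.07 with shRNA2 (-0.57 and -0.56, adjusted p = 0.344 and 0.748). It was dim, its hairpin values lying near the lower quartile of an array (3.79 to 3.90). Chd1, a remodeler that binds methylated H3K4, gave 7.45 and 7.84 in shControl against 6.96 and 7.07 with shRNA1 (-0.63, adjusted p = 0.336). A second Chd1 probe set gave -0.32 with shRNA1, and the third, with overlapping arrays, -0.07. Paxip1, a subunit of the Kmt2c and Kmt2d complexes, had 4 probe sets, which gave -0.41, -0.31, -0.44 and -0.41 with shRNA1 and -0.32, -0.25, -0.24 and -0.29 with shRNA2. None was called, and all 4 are read from the same arrays. Kmt2e gave 5.88 and 6.51 in shControl against 6.75 and 7.19 with shRNA2 (0.77, adjusted p = 0.896).

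On day 4 a second probe set of Chd1 was higher (0.56, adjusted p = 0.0243 over all probe sets), while the brightest gave 0.09. A probe set of Bptf, a remodeler subunit with a PHD finger for methylated H3K4, was lower (-1.04, adjusted p = 0.0343), while the brightest gave -0.37 and was not called. Both were named after their values were seen.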
